A study of Caenorhabditis elegans with 12 samples.

Results

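The MES, MET-1 and MRG-1 genes of Caenorhabditis elegans encode chromatin proteins that add or read methyl groups on histone H3 in the germline. The 6 genes described here, mes-2, mes-3, mes-6, mes-4, met-1 and mrg-1, were chosen by name for these roles out of 40961 gene names, and all 6 were present and passed the filter on low values. RNA sequencing measured transcript levels in gonads dissected with needles from adults of the F3 generation, 3 generations after an exposure of the P0 animals that lasted 48 h. The P0 animals had been kept in water, in 0.1% dimethyl sulfoxide (DMSO, a solvent) or in 100 µM bisphenol A (BPA, a plastics monomer that binds oestrogen receptors in vertebrates), and each exposure was represented by 4 libraries, named here by exposure and sample number. All worms were grown at 20 °C on OP50 bacteria, while the sources used here do not give the strain, the number of gonads in each library or whether the BPA animals also received the solvent. The series asks how the memory of a chemical exposure depends on demethylases that remove methyl groups from H3K9, H3K36 and H3K27, the last 2 of which are the marks that the MES and MET-1 enzymes write.

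In C. elegans, MES-2 is the counterpart of the Polycomb methyltransferase EZH2, MES-6 that of its partner EED, and MES-3 is a further subunit with no clear counterpart outside nematodes. Together they methylate histone H3 at lysine 27, a repressive mark that is dense on the X chromosome in the germline. MES-4, of the NSD type, and MET-1, of the SET2 type, methylate lysine 36 on the bodies of transcribed genes, MES-4 also where transcription has stopped, and MRG-1 is a chromodomain protein related to MRG15, which binds that mark. Loss of mes genes from the mother leaves offspring sterile, with X-linked genes switched on in germ cells.

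The tissue label was met by the summed levels of its markers. All 8 germline markers and all 10 oocyte markers exceeded 1 RPKM (reads per kilobase of transcript, scaled to library size) in some library. So did all 8 muscle markers, and the oocyte markers oma-2 and puf-5, at shared loci, were listed at 0 in at least 1 library. The oocyte markers summed to between 5153 and 8816 RPKM per library and the germline markers to between 1283 and 3720 RPKM. The muscle markers summed to 81.7 to 505 RPKM, the intestine markers to 21.97 to 1130 RPKM and the sperm markers to 14.4 to 199 RPKM. The depth estimated from the smallest values was 14.04 to 33.3 M reads (M, 1000000). Water 1 stood apart from the other libraries. Its correlation with them over all tested genes was 0.855 to 0.901 on the log2 scale, against 0.905 to 0.954 among the other 11, and its summed germline markers, at 1283 RPKM, were the lowest of the 12 (2545 to 3720 RPKM in the others). In bulk tissue a smaller number of germ cells and less RNA per cell cannot be told apart. For the 6 genes and the gene lists, values without water 1 are given beside many of the results against water, but not beside all. Single genes of the lists are given with all libraries.

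The 3 ancestral exposures did not differ detectably in any of the 6 genes. No gene rose or fell between BPA and DMSO, BPA and water, or DMSO and water by limma at a Benjamini-Hochberg adjusted p under 0.05, and 0 of 6 passed at an unadjusted p under 0.05, beside 0.872%, 2.71% and 1.7% of all tested genes in that order. Over all 7570 tested genes limma called 0.0264% between BPA and DMSO, 0.0132% between BPA and water and 0.0132% between DMSO and water, so 0 of 6 is also what the background gives. Without water 1 the adjusted test still called 0 of 6, and mes-4 alone passed at an unadjusted p under 0.05, for BPA and for DMSO against water. No gene had groups that did not overlap, against 1.08%, 2.02% and 0.885% of all tested genes in the same order. The labels do not say that libraries of a group came from separate cultures, so the tests measure the spread between these libraries.

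Among the Polycomb subunits, mes-2, the methyltransferase gene, stood at 25.04, 37.5, 38.6 and 45.0 RPKM in water 1 to 4. The DMSO libraries held 39.0, 37.2, 44.0 and 53.3 RPKM and the BPA libraries 43.3, 44.0, 48.7 and 43.9 RPKM. Water 1 was the lowest library and DMSO 4 the highest, the BPA libraries lay within the range of the DMSO libraries, and all 3 groups overlapped. The group means were 36.5 ± 8.36 RPKM in water, 43.4 ± 7.22 RPKM in DMSO and 45.0 ± 2.52 RPKM in BPA (SD, n = 4 each). Between BPA and water, mes-2 differed by 0.32 ± 0.17 (SE) on the log2(RPKM + 1) scale, with a 95% confidence interval from -0.06 to 0.70 and an adjusted p of 0.987 (limma). With all 12 libraries this was the largest difference of the 6 genes in any comparison, but it was 0.15 without water 1, when mes-4 had the largest, and 0.43 without water 4, at an unadjusted p of 0.034 and an adjusted p of 0.940 (limma).

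The gene of the MES-3 subunit was the lowest of the 6, at 15.2, 7.28, 7.37 and 6.92 RPKM in water 1 to 4. In DMSO 1 to 4 it stood at 10.2, 8.68, 6.96 and 6.99 RPKM and in BPA 1 to 4 at 9.21, 5.96, 8.43 and 7.20 RPKM. Apart from water 1, which was the highest, and BPA 2, which was the lowest, the libraries lay between 6.92 and 10.2 RPKM, with all groups overlapping. Means were 9.19 ± 3.99, 8.20 ± 1.55 and 7.70 ± 1.42 RPKM in water, DMSO and BPA (SD, n = 4 each), and the difference between BPA and DMSO was -0.08 ± 0.25 (SE, log2). The deposited models hold 4 mes-3 transcripts, of which the third carried most of the signal, with 55.1% to 100% of the gene's RPKM and a median of 97.0%. The first transcript was listed at 0 in 9 libraries and reached 6.44 RPKM in water 1, where the third stood at 8.72 RPKM. Most of what set water 1 above the other water libraries in mes-3 was thus given to the first transcript, which the other water libraries did not show.

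The EED-type subunit gene mes-6 was the highest of the set, at 143, 359, 232 and 329 RPKM in water 1 to 4. The values were 250, 277, 355 and 318 RPKM in DMSO 1 to 4 and 277, 230.3, 342 and 275 RPKM in BPA 1 to 4. Water held both the lowest and the highest library, and the DMSO and BPA libraries lay inside its range. Means were 266 ± 98.2, 300.1 ± 46.3 and 281 ± 45.7 RPKM in water, DMSO and BPA (SD, n = 4 each), with a difference of -0.10 ± 0.26 (SE, log2) between BPA and DMSO.

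The deposited models place mes-6 in 1 locus with cks-1, a gene for a small subunit of cyclin-dependent kinase complexes, and the uncharacterised C09G4.4. All 3 lie on the same strand of chromosome IV. The signal given to cks-1 was 40.8 RPKM in water 1 and 72.1 RPKM in water 2, and the gene is listed at 0 in the other 10 libraries. In the Ensembl annotation C09G4.4 overlaps mes-6, while cks-1 lies close by without overlap. Where models are merged in 1 locus, such a 0 may be an estimate that failed. How much of the locus signal belongs to mes-6 may thus be uncertain in every library. A second mes-6 transcript model is listed at 0 throughout. C09G4.4 held at most 3.81 RPKM, in DMSO 2. Summed over the locus, levels were 294 ± 110 RPKM in water, 301 ± 45.7 RPKM in DMSO and 282 ± 45.0 RPKM in BPA (SD, n = 4 each). The difference between BPA and water was 0.15 for mes-6 and -0.00066 for the locus on the log2 scale, and between DMSO and water it was 0.25 and 0.10. The difference from BPA thus went to about 0 and that from DMSO kept its sign at a smaller size when the locus was taken whole, and the stacked plot of the locus shows where the division differed.

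**Figure D1:**
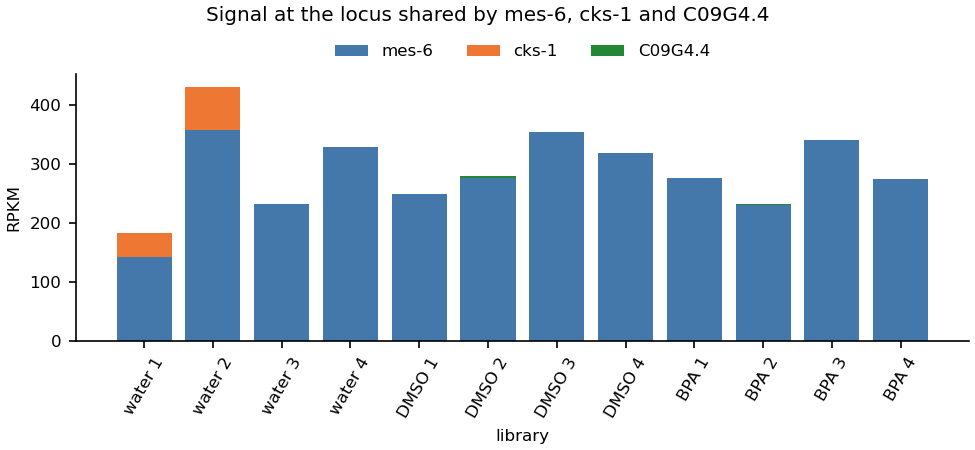
Stacked RPKM (vertical axis) of mes-6, cks-1 and C09G4.4 in each of the 12 libraries (horizontal axis). Signal is given to cks-1 in water 1 (40.8 RPKM) and water 2 (72.1 RPKM) and is listed at 0 in the other 10, while mes-6 holds 98.6% to 100% of the locus outside those 2 libraries.

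Of the H3K36 methyltransferase genes, mes-4 stood at 105, 42.1, 54.9 and 53.5 RPKM in water 1 to 4. It was 65, 54.1, 57.4 and 61.6 RPKM in DMSO 1 to 4 and 64.6, 58.5, 65.8 and 61.4 RPKM in BPA 1 to 4. Water 1 was far above every other library and water 2 was the lowest, so that the water group enclosed both others. Means were 63.8 ± 27.9, 59.5 ± 4.79 and 62.6 ± 3.28 RPKM in water, DMSO and BPA (SD, n = 4 each). BPA differed from DMSO by 0.07 ± 0.22 (SE, log2), with an interval from -0.41 to 0.55. Against water, mes-4 differed by 0.06 in BPA and -0.02 in DMSO with all libraries. Without water 1 the remaining water libraries lay between 42.1 and 54.9 RPKM, with a mean of 50.2 ± 7.01 RPKM (SD, n = 3), below all 4 BPA libraries and overlapping the DMSO libraries. By limma the differences were then 0.32 in BPA, at an unadjusted p of 0.0134, and 0.25 in DMSO, at an unadjusted p of 0.044, both with an adjusted p of 0.9996. In that reduced set 1 of 6 genes had no overlap between BPA and water, beside 4.76% of 7412 tested genes, and 0 of 6 between DMSO and water, beside 2.06%. At an unadjusted p under 0.05 it was 1 of 6 in each case, beside 3.12% and 2.05% of all, and at an adjusted p under 0.05 it was 0 of 6, beside 0.027% and 0.0135%.

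The SET2-type gene met-1 read 64.2, 54.8, 58.3 and 43.8 RPKM in water 1 to 4, 62.8, 43.8, 66.3 and 52.1 RPKM in DMSO 1 to 4, and 64.9, 52.8, 61.3 and 49.3 RPKM in BPA 1 to 4. Within each exposure the libraries numbered 1 and 3 were above those numbered 2 and 4, while the exposures overlapped throughout. Its means were nearly equal, at 55.3 ± 8.58, 56.2 ± 10.3 and 57.1 ± 7.26 RPKM in water, DMSO and BPA (SD, n = 4 each). The difference between BPA and DMSO was 0.03 ± 0.16 (SE, log2), with an interval from -0.33 to 0.39, that is, from a 0.798-fold to a 1.31-fold level.

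For mrg-1, the gene of the chromodomain protein, water 1 to 4 gave 71.2, 58.7, 65.6 and 70.8 RPKM, DMSO 1 to 4 gave 64.4, 57.8, 66.1 and 75.4 RPKM, and BPA 1 to 4 gave 71.7, 68.4, 72.4 and 68.2 RPKM. All BPA libraries lay inside the range of the DMSO libraries, and all but BPA 1 and BPA 3 inside that of the water libraries. This was the steadiest gene of the set, with a coefficient of variation of 7.95% over the 12 libraries, against 14.2% for met-1, 16.9% for mes-2, 22.4% for mes-6, 24.2% for mes-4 and 29.2% for mes-3. Means were 66.6 ± 5.85, 65.9 ± 7.25 and 70.2 ± 2.18 RPKM in water, DMSO and BPA (SD, n = 4 each). Its interval was also the narrowest: BPA against DMSO was 1.07-fold, with a 95% interval from 0.908 to 1.26 (limma, adjusted p = 1). The first of its 2 transcripts held 58.5 ± 4.58% of the gene's RPKM in water, 59.0 ± 5.15% in DMSO and 58.4 ± 4.12% in BPA (SD, n = 4 each), so the division between the transcripts differed by less than the spread between libraries.

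**Figure D2:**
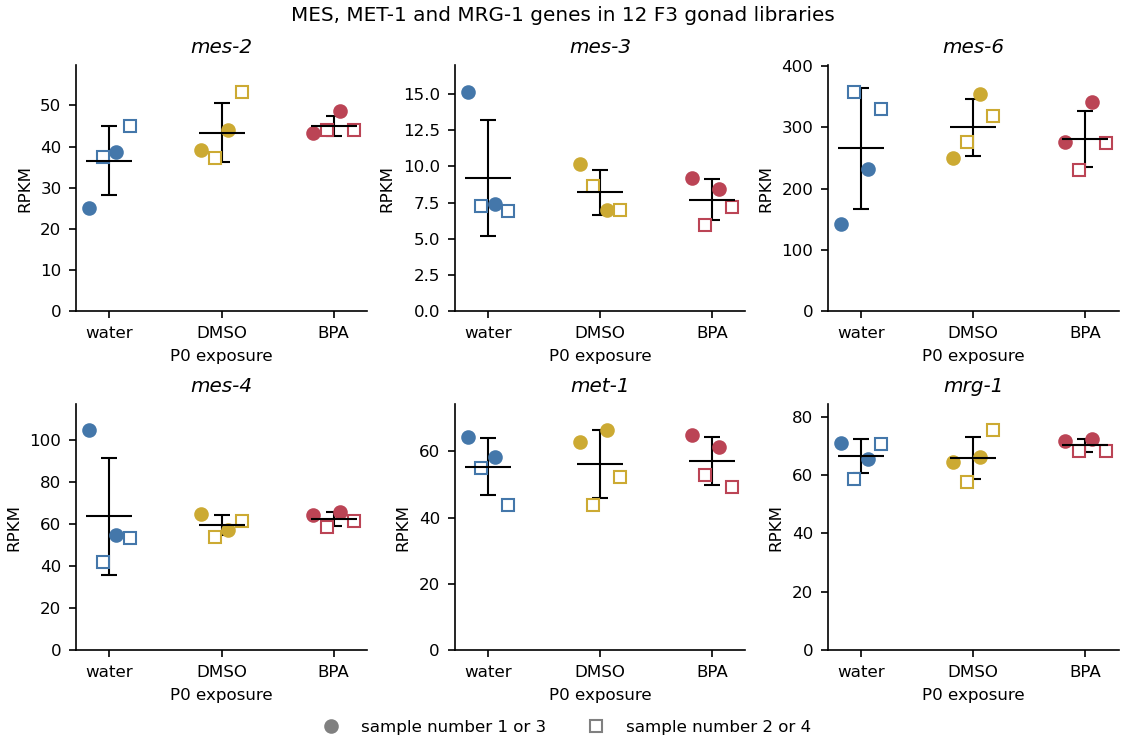
RPKM (vertical axes, from 0) of the 6 genes by P0 exposure, with filled circles for libraries numbered 1 and 3, open squares for those numbered 2 and 4, and black bars for the mean ± SD of 4 libraries. The exposures overlap in every panel, water 1 is the extreme water library for mes-2, mes-3, mes-6 and mes-4, and the circles of met-1 (58.3 to 66.3 RPKM) lie above its squares (43.8 to 54.8 RPKM).

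RPKM is scaled to transcript length, and levels are set side by side between genes on that basis. The order also rests on the deposited models, which differ from the annotation, with 1 transcript for met-1 where Ensembl has 4. Other differences in how well genes were captured were not tested. By the mean over 12 libraries the order was mes-6, mrg-1, mes-4, met-1, mes-2 and mes-3. Only the ends of that order held in each library: mes-6 exceeded mrg-1 in 12 of 12, by 2.005-fold to 6.11-fold, and mes-2 exceeded mes-3 in 12 of 12, by 1.65-fold to 7.63-fold. Between them the neighbours changed places, with mrg-1 above mes-4 in 10 of 12 libraries, mes-4 above met-1 in 8 of 12 and met-1 above mes-2 in 10 of 12. The Polycomb genes thus stood at both ends of the order, with mes-6 taken at its deposited value. That value, and so its rank and percentile, is uncertain, since cks-1 at the same locus is listed at 0 in most libraries. Among all tested genes the median percentile was 97.0 for mes-6, 83.9 for mrg-1, 80.8 for mes-4, 80.4 for met-1, 72.5 for mes-2 and 42.5 for mes-3.

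The intervals show what these libraries could resolve. Between BPA and DMSO the 95% intervals of all 6 genes lay between -0.66 and 0.55 on the log2 scale, with point values from -0.10 for mes-6 to 0.10 for mrg-1 and adjusted p-values of 1 (limma). Between BPA and water the point values ran from -0.17 for mes-3 to 0.32 for mes-2, with adjusted p-values from 0.987 to 0.9895 (limma). Between DMSO and water they ran from -0.09 for mes-3 to 0.26 for mes-2, with adjusted p-values of 0.999 (limma). The 3 comparisons share libraries in pairs, so their values are not independent of one another. Over the 6 genes the median difference was 0.05, 0.07 and 0.00189 in the same order, beside 0.02, -0.01 and -0.02 over all tested genes. Without water 1 the median of the 6 against water was 0.12 for BPA and 0.09 for DMSO, beside 0.05 and 0.02 over all tested genes, which had changed sign. Differences smaller than these intervals were not detectable here, which does not show that the exposures were alike.

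**Figure D3:**
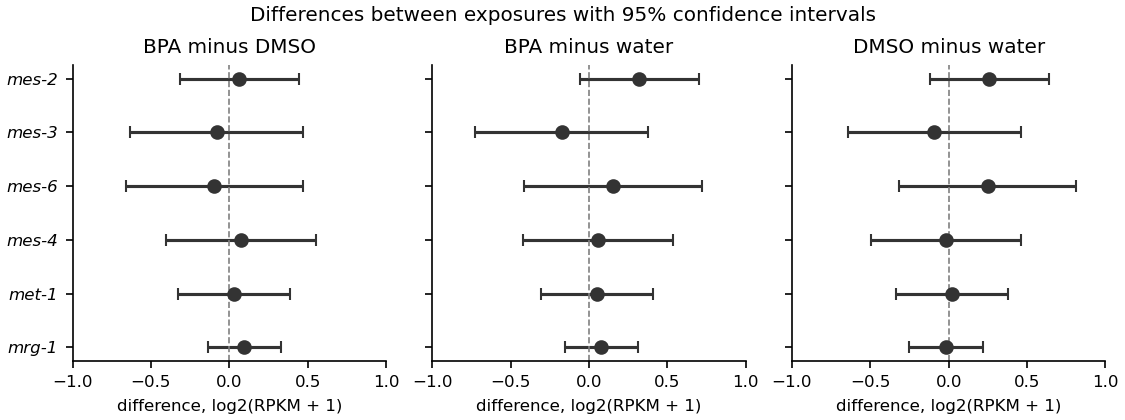
Differences between exposures on the log2(RPKM + 1) scale (horizontal axes) for the 6 genes, as points with 95% confidence intervals from limma over 12 libraries. All 18 intervals include 0, and mes-2 between BPA and water, at 0.32 (-0.06 to 0.70), is the farthest from it.

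Much of the spread in the water group came from 1 library. In water 1, mes-3 was 2.11-fold and mes-4 2.09-fold the mean of the other 3 water libraries, while mes-2 was 0.62-fold and mes-6 0.465-fold that mean. For met-1 the ratio was 1.23 and for mrg-1 it was 1.10. The Polycomb genes were found on both sides, with mes-2 and mes-6 low there together and mes-3 high. The H3K36 methyltransferase genes mes-4 and met-1 were both above that mean. The low germline marker sum of water 1 (1283 RPKM) moved with these values, and its part in them was not tested. Without water 1, the differences against water changed sign for mes-3 (BPA 0.07, DMSO 0.15) and mes-6 (BPA -0.12, DMSO -0.02), and between DMSO and water also for mes-4 (0.25) and mrg-1 (0.02). For mes-2 the difference between DMSO and water was 0.26 with all libraries and 0.09 without water 1.

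The same library carried the strongest correlations between the genes. Over the 12 libraries, 15 pairs of the 6 genes were compared on the log2 scale, and 0 passed at an adjusted p under 0.05 in permutation tests. The highest was that of mes-3 and mes-4, with r = 0.785 (adjusted p = 0.060, permutation) and rho = 0.545 (adjusted p = 0.265, permutation). It fell to r = 0.233 without the 2 libraries farthest from the median of mes-3 and to 0.366 without water 1, and was 0.956 within numbers 1 and 3 and -0.24 within numbers 2 and 4. The pair mes-2 and mes-3 gave r = -0.771 (adjusted p = 0.060, permutation) and a Spearman rho of -0.643 (adjusted p = 0.222, permutation). Without the 2 libraries farthest from the median of mes-2 it gave r = -0.255, and without water 1 alone r = -0.318. Within numbers 1 and 3 it was -0.836 and within numbers 2 and 4 -0.509. For mes-2 and mes-6, partners in the complex, r was 0.767 (adjusted p = 0.060, permutation) and rho 0.371 (adjusted p = 0.442, permutation), and r fell to 0.281 without the 2 farthest libraries. Within the libraries numbered 1 and 3 that r was 0.964, and within those numbered 2 and 4 it was -0.03, with 6 libraries each. The pair mes-2 and mrg-1 went the other way, with r = 0.323 (adjusted p = 0.453, permutation) and rho = 0.636 (adjusted p = 0.222, permutation) over all libraries. Without water 1 this pair gave r = 0.896, and it gave r = -0.06 within numbers 1 and 3 and 0.967 within numbers 2 and 4. Other pairs also moved with water 1. For mes-2 and mes-4, r was -0.499 with it and 0.525 without it, a change of sign. For mes-3 and mes-6, r went from -0.679 to -0.098 without it, and for mes-4 and mes-6 from -0.759 to -0.311. The pair mes-4 and mrg-1 moved less, at r = 0.545 with it and 0.657 without it.

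Sample numbers separated the libraries for met-1 alone among the 6. The 6 libraries numbered 1 and 3 held 58.3 to 66.3 RPKM of met-1 (63.0 ± 2.87, SD, n = 6) and those numbered 2 and 4 held 43.8 to 54.8 RPKM (49.4 ± 4.70, SD, n = 6). The difference was 0.31 in water, 0.43 in DMSO and 0.30 in BPA, or 0.35 over all libraries on the log2 scale. Of all tested genes, 6.96% were likewise separated with numbers 1 and 3 higher and 0.436% with them lower. The split into these numbers was seen in earlier results and carries no test of its own, and the labels do not say what a number stands for. The F test of limma over the 4 numbers gave met-1 a p of 0.033 and an adjusted p of 0.249, with adjusted p from 0.188 to 0.559 over the alternatives. It called 0 of 6 genes, beside 0.0661% of all tested genes, and 1 of 6 at an unadjusted p under 0.05, beside 16.4% of all.

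The separation of met-1 depended on the scaling of the libraries, in a check made after its values were seen. With values rescaled to the same sum in each library, the lowest of the libraries numbered 1 and 3 was at 54.4 and the highest of the others at 54.5. After median-ratio scaling these were 56.6 and 59.8, the difference fell to 0.23, and the median over all tested genes moved from 0.07 to -0.03. Markers of some tissues around the germline also moved with the numbers. The 8 muscle markers summed to 184 to 505 RPKM in libraries 1 and 3 and to 81.7 to 167 RPKM in libraries 2 and 4, with no overlap. Much of that sum was pat-10, at 12.4 to 325 RPKM. On the log2 scale all 8 were higher on average in libraries 1 and 3, but only pat-10, myo-3 and mup-2 were separated as single genes. The intestine markers, 9 of 10 of them in the files, summed to 21.97 to 1130 RPKM (median 113) and 23.0 to 97.6 RPKM (median 39.6), and the defining intestine genes ges-1, elt-2 and asp-1 stayed under 1 RPKM in every library. The 10 sheath, distal tip and spermatheca markers summed to 124 to 225 RPKM and 96.0 to 168 RPKM, with tnt-4 and lag-2 under 1 RPKM throughout. The 6 hypodermis markers had medians of 2.99 and 4.81 RPKM, but their sums overlapped, at 1.52 to 7.42 RPKM and 1.21 to 26.7 RPKM. Only rol-6 among them was tested, with a difference of -0.74 (log2). The sums of the 6 neuron markers overlapped, at 5.34 to 12.2 RPKM and 3.41 to 27.7 RPKM, with snb-1, at a shared locus, between 0 and 25.3 RPKM. The tested neuron genes unc-119 (1.00, without overlap) and ric-4 (0.31) were higher in libraries 1 and 3. The part of these tissues in the met-1 values was not tested.

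Transcript length moved with the numbers too. The longest annotated met-1 transcript has 5395 bases, and the 216 tested genes with transcripts longer than 5000 bases had a median difference of 0.19 between the numbers, with 75.5% above 0. In the shorter classes the median was 0.05 to 0.08, and 0.06 from 3000 to 5000 bases, the class of mes-3 (3122 bases) and mes-4 (3121 bases). The part of transcript length in the met-1 values was not tested. The other 5 genes, whose longest annotated transcripts have 1499 to 3122 bases, overlapped between the numbers. Their differences were -0.14 for mes-2, -0.21 for mes-6, 0.33 for mes-3, 0.29 for mes-4 and 0.05 for mrg-1 over all libraries, and mrg-1 changed sign to -0.07 under median-ratio scaling. Without water 1 they were -0.02 for mes-2, -0.04 for mes-6, 0.20 for mes-3, 0.16 for mes-4 and 0.04 for mrg-1, while met-1 kept 0.34. For mes-2 and mes-6 the exposures went opposite ways, with -0.39 and -0.91 in water and 0.06 and 0.29 in BPA. Of the water values, -0.09 and -0.56 were left without water 1.

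**Figure D4:**
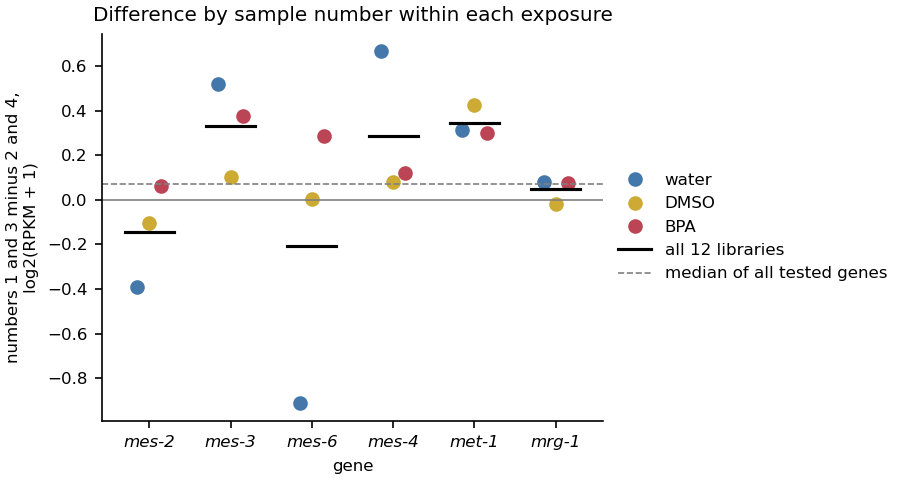
Difference of libraries numbered 1 and 3 minus those numbered 2 and 4 on the log2(RPKM + 1) scale (vertical axis) for each gene, by exposure (coloured points) and over all 12 libraries (black lines), with the median of all tested genes dashed at 0.07. The 3 exposures lie together above the dashed line for met-1 (0.30 to 0.43) and spread widely for mes-6 (-0.91 in water to 0.29 in BPA).

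The wider pathway was described by 6 lists of genes, and in none of them did a gene pass the test between exposures, with or without water 1. Of the 12 H3K27 demethylase and Polycomb-type genes 9 could be tested, and 5 of them were above 0 between BPA and DMSO, with a median of 0.05, where 55.5% of all tested genes were above 0. For BPA against water the median was 0.06, and 0.10 without water 1. The highest were jmjd-1.2, a demethylase gene, at 87.1 ± 18.8 RPKM in water, 86.1 ± 7.65 RPKM in DMSO and 90.4 ± 3.83 RPKM in BPA, cec-6, which encodes a chromodomain protein, at 36.9 ± 9.30, 40.5 ± 7.58 and 37.1 ± 2.86 RPKM, and spat-3, which encodes a RING finger protein, at 12.8 ± 3.41, 15.4 ± 7.03 and 14.7 ± 4.75 RPKM. The H3K27 demethylase gene utx-1, named in the title of the series, was much lower, at 3.86 ± 1.24, 3.85 ± 2.19 and 4.71 ± 2.71 RPKM (all SD, n = 4). The RING finger gene mig-32 is listed at 0 in every library.

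A list of other SET domain and demethylase genes, drawn up for H3K36, was tested in 9 of 9 cases. Not all of its genes are established writers or erasers of that mark, among them set-9, set-17 and set-26, so its counts and medians are not those of H3K36 enzymes alone. Between BPA and DMSO 3 were above 0, with a median of -0.03, where 55.5% of all tested genes were above 0. The median between BPA and water was also -0.03, and 0.04 without water 1. Between DMSO and water it was -0.03, and 0.13 without water 1. The demethylase gene jmjd-2, also named in the title, stood at 40.8 ± 5.66, 43.6 ± 4.83 and 44.8 ± 7.11 RPKM in water, DMSO and BPA, close to the level of mes-2. The SET domain gene set-9 held 41.7 ± 10.98, 41.1 ± 2.85 and 40.1 ± 3.29 RPKM and the demethylase gene jhdm-1 46.8 ± 24.2, 39.5 ± 6.69 and 33.9 ± 3.69 RPKM. The lowest value against water in the list belonged to set-18, chosen here after its values were seen, with 7.55 ± 4.80 RPKM in water, 4.24 ± 2.19 RPKM in DMSO and 2.09 ± 0.877 RPKM in BPA (all SD, n = 4). Its difference between BPA and water was -1.34 ± 0.42 (SE, log2), at an unadjusted p of 0.0074 and an adjusted p of 0.987 (limma).

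The genes of the SIN3 and TIP60 complexes, to which MRG-1 and its relatives belong, were tested in 12 of 12 cases. Between BPA and DMSO 11 of them were above 0, with a median of 0.08, beside 55.5% of all tested genes above 0. For BPA against water 8 were, with a median of 0.06, beside 48.2% of all, and without water 1 there were 11, with a median of 0.16, beside 59.3% of all. They include the deacetylase gene hda-1, at 78.2 ± 4.86, 81.1 ± 5.45 and 86.4 ± 3.39 RPKM in water, DMSO and BPA, and the scaffold gene sin-3, at 74 ± 21.4, 67.2 ± 5.13 and 69.7 ± 9.32 RPKM. The TIP60 subunit gene epc-1 was the highest, at 157 ± 72.0, 157 ± 52.0 and 168 ± 31.6 RPKM (SD, n = 4 each), and shares its locus with another gene name in the models. Both hda-1 and sin-3 were close to the level of mrg-1.

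In the list of H3K9 methylation genes 5 of 6 were tested, with a median between BPA and water of 0.13, and 0.17 without water 1. The methyltransferase gene met-2 stood at 41.7 ± 13.7, 40.8 ± 3.55 and 57 ± 10.9 RPKM in water, DMSO and BPA (SD, n = 4 each), a difference between BPA and DMSO of 0.45 ± 0.21 (SE, log2) with an adjusted p of 1 (limma), and its locus is shared. The other methyltransferase gene, set-25, held 42.8 ± 6.82, 49.6 ± 5.09 and 51.6 ± 1.93 RPKM, and lin-61, for a protein that binds methylated lysine 9, held 66.1 ± 7.17, 61.4 ± 2.57 and 60.7 ± 3.15 RPKM (SD, n = 4 each).

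Germline-expressed genes of the class that MES-4 marks in embryos gave 16 tested genes out of 17. Between BPA and water 14 of them were above 0, with a median of 0.26, beside 48.2% of all tested genes above 0. Without water 1 there were 11, with a median of 0.06, beside 59.3% of all, whose median was 0.05. Between BPA and DMSO 13 were above 0, with a median of 0.09, beside 55.5% of all. Between DMSO and water 12 were, with a median of 0.18, beside 46.2% of all. Without water 1 there were 10, with a median of 0.02, beside 55.6% of all. At an unadjusted p under 0.05 limma passed 18.75% of the 16 between BPA and water with all libraries, beside 2.71% of all. Between BPA and DMSO it passed 6.25%, beside 0.872% of all. The germ granule genes glh-1 and pgl-1 stood at 836 ± 485, 842 ± 35.9 and 829 ± 156 RPKM and at 166 ± 45.4, 180.2 ± 10.5 and 196 ± 22.7 RPKM in water, DMSO and BPA, and nos-2, a translational regulator, at 248 ± 49.1, 280 ± 96.7 and 278 ± 74.9 RPKM (SD, n = 4 each). The largest difference between BPA and DMSO in the list was that of pgl-3, a further germ granule gene named here after its values were seen, with 129 ± 36.4 RPKM in DMSO and 204 ± 7.37 RPKM in BPA (SD, n = 4 each), or 0.70 ± 0.20 (SE, log2), at an unadjusted p of 0.0048 and an adjusted p of 1 (limma).

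The X chromosome, which the MES proteins keep silent in germ cells, gave 821 tested genes, and limma called 0 of them between exposures, with 3, 7 and 8 at an unadjusted p under 0.05 for BPA against DMSO, BPA against water and DMSO against water. Those are 0.365%, 0.853% and 0.974% of the X-linked genes, beside 0.872%, 2.71% and 1.7% of all tested genes. Their median difference was 0.06, -0.03 and -0.08 in that order. Without water 1 it was 0.05, 0.05 and 0.00012 over 796 genes, so the direction between BPA and water turned. The median of all tested genes turned in the same way, from -0.01 to 0.05. Without water 1, 59.1% of the X-linked genes and 59.3% of all were above 0 between BPA and water. The share of the summed RPKM of genes with a nuclear chromosome that lay on the X was 4.99 ± 2.85% in water, 3.70 ± 0.717% in DMSO and 3.81 ± 0.844% in BPA (SD, n = 4 each), differences within the spread of the water libraries, of which water 3 was the highest at 9.06%. By sample number the X-linked genes stood much further apart: libraries 1 and 3 exceeded libraries 2 and 4 by a median of 0.60, with 759 of 821 above 0. Over all tested genes the median was 0.07, with 4551 of 7570 above 0. After median-ratio scaling the medians were 0.52 for X-linked genes and -0.03 for all. The F test of limma over the 4 numbers called 2 of the 821, beside 0.0661% of all tested genes. At an unadjusted p under 0.05 it passed 51.5% of the 821, beside 16.4% of all. None of the 6 genes lies on the X chromosome: mes-3 and met-1 are on chromosome I, mes-2 on II, mrg-1 on III, mes-6 on IV and mes-4 on V, by name in the Ensembl annotation.

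Among 6 X-linked regulator genes, 4 were tested, with a median between BPA and water of 0.04, and 0.19 without water 1. The synthetic multivulva gene lin-15B, whose silencing in germ cells is known to depend on MES proteins, was at 6.42 ± 1.32, 7.92 ± 2.62 and 7.52 ± 2.97 RPKM in water, DMSO and BPA (SD, n = 4 each). Its neighbour lin-15A, at the same locus, is listed at 0 in 1 library and lay between 1.90 and 9.91 RPKM in the other 11. The mean of lin-15B was near that of mes-3, and both lin-15 genes were below the other 5 genes.

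**Figure D5:**
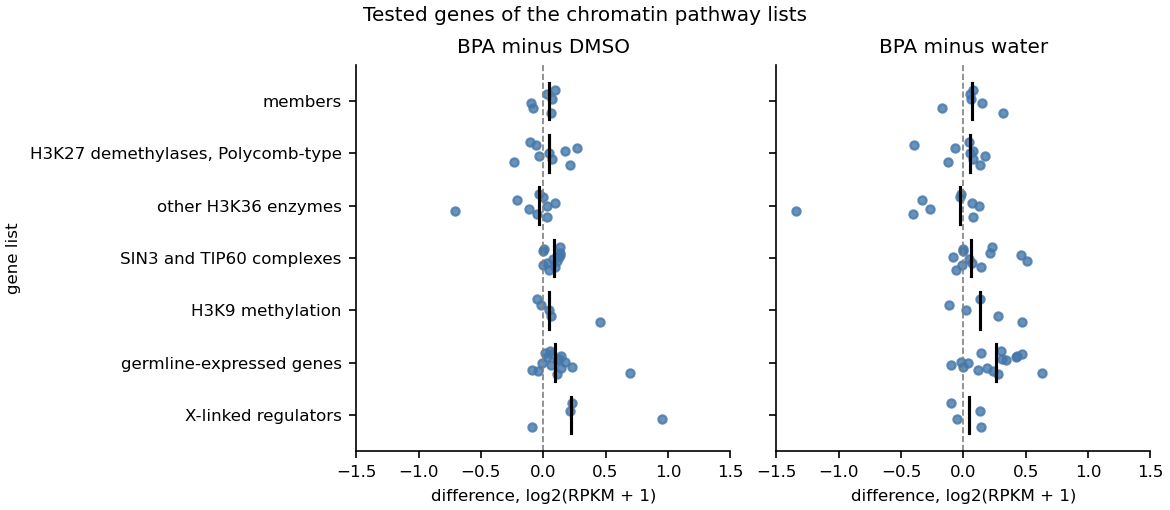
Differences on the log2(RPKM + 1) scale (horizontal axes) of the tested genes in the 6 genes described here (members) and 6 pathway lists (vertical axis), with a black line at each median, for BPA minus DMSO and BPA minus water. Medians lie between -0.03 and 0.26, the germline-expressed genes have the highest median against water with all libraries (0.26, and 0.06 without water 1), and no gene shown passed the test.

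The genes whose pattern over the 12 libraries was most like each of the 6 were taken from 6268 tested genes that stand alone at their locus, by Pearson's r on the log2 scale. For mes-2 these were egg-4 (r = 0.981), which acts in the change from egg to embryo, the germ granule gene glh-3 (r = 0.971) and B0035.6 (r = 0.968). Without water 1 the first 2 had r = 0.943 and r = 0.909. For mes-4 they were Y71F9AR.3 (r = 0.972), ceh-100 (r = 0.970) and ZK484.4 (r = 0.966), with r = 0.909 to 0.9325 without water 1. The nearest to mes-6 were Y75B8A.16 (r = 0.970), K01D12.6 (r = 0.968) and B0491.6 (r = 0.968), with r = 0.911 to 0.929 without water 1. Those of mes-3 were M57.3 (r = 0.959), sel-8 (r = 0.949) and mom-5 (r = 0.945), which fell to 0.877, 0.851 and 0.857 without water 1. Of these, M57.3 and sel-8 were low, with means of 2.01 and 2.17 RPKM.

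The pattern of met-1 was most like that of mec-8, which encodes an RNA-binding protein (r = 0.971, and 0.969 without water 1), of sor-3, a gene of the Polycomb-type list (r = 0.943 and 0.949), and of F39C12.1 (r = 0.939). For mrg-1 the nearest were cul-1, a cullin gene (r = 0.931 and 0.929), ragc-1 (r = 0.928) and cdt-2 (r = 0.900). These are the highest of many values in libraries that share depth and tissue composition, and no test was made of them. None of the 6 genes was among the 3 nearest of another, and mes-6, at a shared locus, could not be.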

How the data were processed

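The 12 libraries were prepared from gonad RNA with a SMART-Seq kit for small inputs and a Nextera XT kit and read as single ends of 50 bp, per the labels. The authors deposited 1 table of transcript values per library: RPKM in 11 and, per the file headers, FPKM in that of BPA 1, which is equivalent where reads are single. HISAT, StringTie and the build ce10 were used, per the submitters' processing notes. The sources used here give neither versions nor the annotation. A protocol that keeps the strand is not named, so reads from the opposite strand cannot be told apart.

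Values of the 49201 transcripts were summed per gene name, leaving out 279 without a name (0.879% to 2.67% of a library's sum). Of 37450 loci, 3605 hold several names. A minimum of 1 RPKM in 4 or more of the 12 libraries left 7570 genes to test. Differences were tested two-sided on log2(RPKM + 1), a scale that understates changes of low genes, with limma 3.58.1 in R 4.3.3, with a variance trend, all 12 libraries in 1 fit and Benjamini-Hochberg adjustment over all tested genes. Adjusted p-values for genes all come from limma. Sample number was tested by an F test beside exposure. Values were summed and figures drawn in Python 3.11.15. Chromosomes and lengths were matched by name to Ensembl release 115 (97.6% of tested genes have a chromosome), whose build differs, and no coordinates are printed.

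The files hold no counts. Depth was estimated from the most frequent step between low values, and 33.0% to 38.4% of low values were whole reads within 0.1, too few for a count test. The members, lists and tests were chosen with earlier results of these data known. The text names the 6 genes, the 3 tested genes with the highest mean in each list, any called gene and the 3 genes most like each of the 6, and says where another was added. Sample numbers were not used as a block, since the labels do not say what they share. Alternatives were pseudocounts of 0.1 and 5, no filter or a mean of at least 10 RPKM, other scalings, array weights, locus sums, only the compared groups, terms for sample number, subsets by number and leaving out each library. The fit was tested on simulated data before use.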

Additional observations from a re-analysis of the deposited data

Results flagged for a closer look

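In 18 sets of 4 libraries (6 genes in 3 exposures), 2 held a library that lay far from the other 3, and chance alone gives about 1 in 20 such sets. In BPA 3, mes-2 stood at 48.7 RPKM, while the other BPA libraries lay between 43.3 and 44.0 RPKM. That gap spans 0.862 of the range of the group and is small beside the spread of mes-2 in DMSO and water. In water 1, mes-3 stood at 15.2 RPKM, while the other water libraries lay between 6.92 and 7.37 RPKM, and the gap spans 0.946 of the range. Its excess lay mostly in a transcript listed at 0 in 9 libraries.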

How the results depend on the processing

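Over 447 combinations of gene, comparison and alternative, limma called 0 of the 6 genes, and 39 values changed sign. The lowest adjusted p was 0.653, for mes-2 between BPA and water, where the difference ran from 0.10 to 0.55. With array weights, which gave water 1 a weight of 0.149, the sign changed for met-1 between BPA and DMSO (-0.020), for mes-3 (0.0056) and mes-6 (-0.11) between BPA and water, and for mes-3 (0.16) and mes-4 (0.19) between DMSO and water. Locus sums turned mes-6 between BPA and water (-0.00066). With numbers 1 and 3 alone, the sign changed for mes-3 (0.056), mes-6 (0.045) and met-1 (-0.032) between BPA and DMSO, and for mes-4 between BPA and water (-0.22), while mes-6 between BPA and water was 0.75, the highest of all these values. With numbers 2 and 4 alone it changed for mes-2 between BPA and DMSO (-0.020), mes-6 between BPA and water (-0.45), and mes-3 (0.12), mes-6 (-0.21), mes-4 (0.28), met-1 (-0.036) and mrg-1 (0.033) between DMSO and water. The cause of these changes was not tested.

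Leaving out each library in turn gave, between BPA and DMSO, -0.0046 to 0.16 for mes-2, -0.16 to 0.020 for mes-3 and -0.081 to 0.11 for met-1. Between BPA and water it gave -0.27 to 0.072 for mes-3, -0.12 to 0.32 for mes-6, -0.11 to 0.32 for mes-4 and -0.055 to 0.13 for met-1. Between DMSO and water it gave -0.19 to 0.15 for mes-3, -0.020 to 0.42 for mes-6, -0.18 to 0.25 for mes-4, -0.085 to 0.13 for met-1 and -0.082 to 0.044 for mrg-1. The mes-3 gene could not be tested at a mean of at least 10 RPKM.

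The number of genes called between BPA and DMSO was 2, and 1 with a pseudocount of 0.1, a mean of at least 10 RPKM, only the compared groups or locus sums. It was 4 with numbers 1 and 3 alone, 12 with numbers 2 and 4 alone and 1 to 3 leaving out each library (1 without DMSO 2, DMSO 3 or DMSO 4). Between BPA and water it was 1, then 3 with only the compared groups, 2 with array weights, 0 with locus sums, 4 and 16 with the number subsets, and 1 to 2 leaving out each library (2 without water 1, DMSO 1 or DMSO 4). Between DMSO and water it was 1, then 0 with a mean of at least 10 RPKM, 3 with only the compared groups, 5 and 7 with the number subsets, and 0 to 1 leaving out each library (0 without DMSO 1, DMSO 2 or DMSO 3). The F test over sample numbers called 5 genes, and 0 and 8 with pseudocounts of 0.1 and 5, 2 without a filter, 3 with a mean of at least 10 RPKM, 1 with equal sums, 3 with median-ratio scaling, 21 with locus sums and 0 to 4 leaving out each library. With the sample number as a replicate block, the count was 1 between BPA and DMSO, 0 between BPA and water and 1 between DMSO and water, and the block called none of the 6 genes. Samples with the same number correlated in their deviations from the group means by -0.07 to 0.34 (12 pairs, median 0.09). The median was 0.04 for other pairs within numbers 1 and 3 or within 2 and 4 (12 pairs). Across those 2 sets it was -0.08 (24 pairs). Of the 12 libraries, 6 correlated best with a library of their own number. The numbers were not taken as a pairing because the labels do not say what they share.

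With 4 libraries a group, the median 95% interval over all tested genes reached 0.58 to either side on the log2 scale, which limits what could be seen. Depth here is an estimate, and precision per gene cannot be given from counts.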
